A study of Mus musculus with 24 samples.

Results

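The 30 genes described here are genes of oligodendrocytes and of the myelin sheath, chosen by symbol and read in mouse forebrain. For each gene the probe set that carries its symbol alone and has the highest mean over all 24 arrays was used, which gave a value for 29 of the 30 genes, among 18193 genes measured in all. Transferrin (Trf) was the exception, because its probe set also carries the symbol Srprb. The 29 measured genes code for 11 structural and membrane proteins (Mbp, Mog, Mag, Mobp, Cnp, Cldn11, Mal, Tspan2, Opalin, Ermn and Pllp), 4 enzymes of lipids and their precursors (Ugt8a, Fa2h, Gal3st1 and Aspa), 5 transcription factors (Myrf, Sox10, Olig1, Olig2 and Nkx6-2), 2 gap junction proteins (Gjb1 and Gjc3) and 7 other products of oligodendrocytes (Cryab, Qdpr, Car2, Plekhb1, Bcas1, Gsn and Evi2a). The mice were TgCRND8, which carry an APP transgene labelled APPSwe/Ind, or littermates without the transgene, called controls here. Each genotype was taken at 70, 80 and 150 days of age with 4 mice per group, so that the 24 Affymetrix arrays form 6 groups. The forebrain was separated from the olfactory bulb and from the cerebellum with the brainstem. The labels name no promoter for the transgene and give no sex. Values are log2 signals, and a difference of 1 is a doubling of signal.

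Oligodendrocytes wrap axons of the central nervous system in myelin, a stack of membrane that is rich in cholesterol and galactolipids and held together by a small set of abundant proteins. Olig1, Olig2, Sox10, Nkx6-2 and Myrf are transcription factors of the lineage, and Sox10 and Myrf drive the myelin genes as precursors mature. In the forebrain myelin is still being added in young adult mice, and the genes for its proteins and lipid enzymes remain active while the sheath is maintained. In RNA from whole forebrain, fewer oligodendrocytes and less of a transcript per oligodendrocyte cannot be told apart.

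Array medians were 4.28 to 4.38 and the highest correlation between arrays was 0.9977, with no identical pair. Of the 29 genes, 28 lay above those medians in mean signal, Mbp being above nearly all other genes, and Nkx6-2 lay below them at a mean of 3.84. The precursor, neuron, astrocyte and microglia marker lists had mean levels over 6.2 on every array. The Schwann cell list had a mean level of 3.55 to 4.16 per array, and the list for hindbrain and cerebellum 3.57 to 4.15. Xist, the RNA of the inactive X chromosome, was near 3 on 5 arrays, namely control day 70 replicate 4, control day 80 replicates 1 and 4, and TgCRND8 day 80 replicates 1 and 3. It was above 9 on the other 19, so that the day 150 groups held no low-Xist array.

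Control mice at day 70 had the highest mean of the 6 groups for 24 of the 29 genes (82.8%), against 21.3% of all genes measured. The 5 exceptions were Opalin, highest in TgCRND8 mice at day 70, Myrf and Sox10, highest in controls at day 150, Nkx6-2, highest in TgCRND8 mice at day 80, and Gjc3, highest in TgCRND8 mice at day 150. By role, control day 70 was highest for 10 of 11 structural and membrane proteins, 4 of 4 lipid enzymes, 7 of 7 other oligodendrocyte genes, 2 of 5 transcription factors and 1 of 2 gap junction proteins. The lowest mean lay in a day 150 group for 16 of the 29 genes, 8 in controls and 8 in TgCRND8 mice, or 27.6% each, against 18.8% and 15.9% of all genes. The spread between the highest and the lowest group mean was 0.70 for Mog, 0.57 for Cldn11, 0.54 for Ugt8a, 0.51 for Tspan2, 0.49 for Mal and 0.43 for Cryab. It was 0.08 for Gjc3 and 0.11 for Sox10, both within the pooled SD of single arrays inside a group (0.14 and 0.20).

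**Figure D1:**
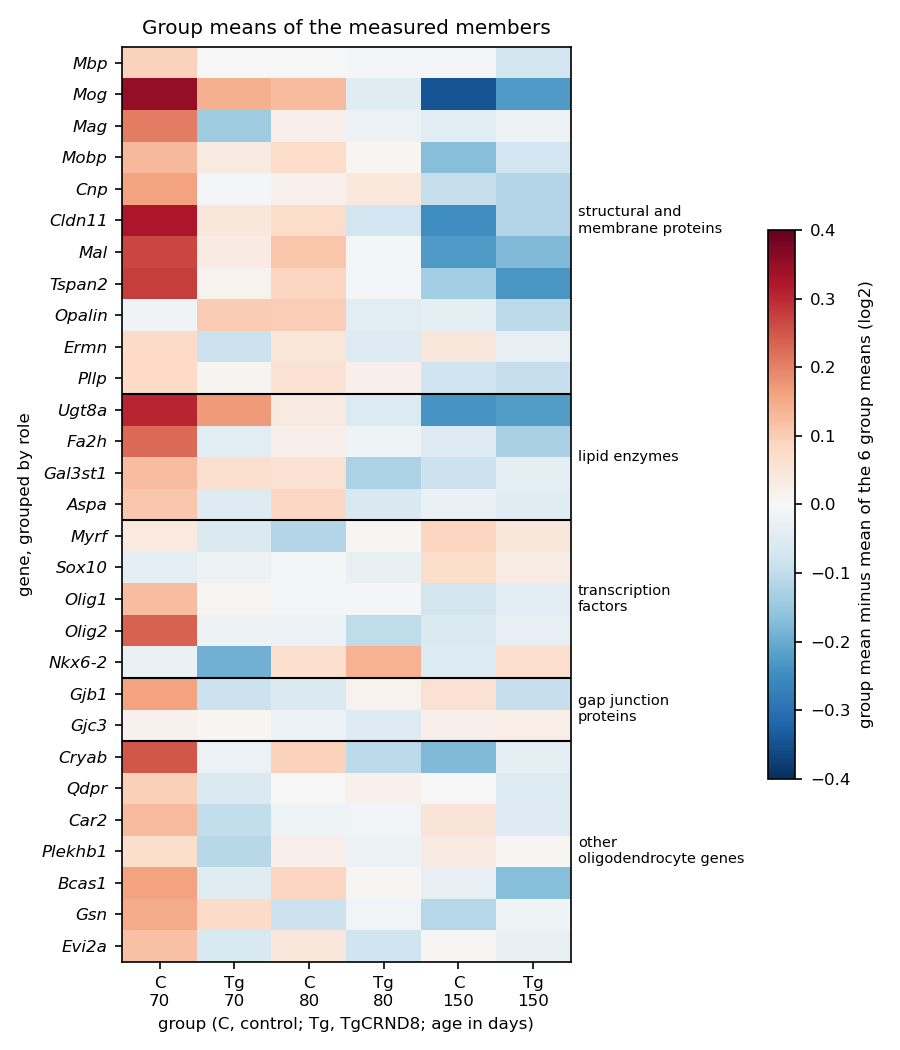
Group mean of each of the 29 measured genes minus the mean of its 6 group means (log2, colour), with genes in rows by role and groups in columns (C, control; Tg, TgCRND8; age in days). The control day 70 column is red for most genes, 24 of 29 having their highest mean there, and the strongest blue lies in the day 150 columns for Mog, Cldn11, Mal, Ugt8a and Tspan2.

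The comparison of control mice at day 150 with day 70 asks what 80 days of adult age do in the absence of the transgene. The 4 genes that fell were structural or lipid genes of myelin: Mog to 61.7% of its day 70 signal, Ugt8a to 68.8%, Mal to 71.0% and Tspan2 to 75.2%. These 4 were the only genes called among the 18193 tested (0.022%), and therefore held the 4 smallest p-values. Of the 29 genes, 26 had a lower mean at day 150, against 51.2% of all genes, and their median difference was -0.19, against -0.0034 over all genes.

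Mog codes for a glycoprotein on the outermost layer of the sheath. Its signal in the 4 control mice was 7.04, 7.16, 7.42 and 7.11 at day 70, then 6.90, 6.96, 7.11 and 6.88 at day 80, and 6.57, 6.31, 6.57 and 6.502 at day 150. All day 150 arrays lay below all arrays of both earlier ages. The difference between days 150 and 70 was -0.70 (SE 0.12, 95% interval -0.95 to -0.44; adjusted p = 0.0409, limma with Benjamini-Hochberg adjustment).

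Ugt8a codes for the enzyme that adds galactose to ceramide, the step that makes galactosylceramide. The control arrays read 8.64, 8.61, 8.68 and 8.94 at day 70, 8.54, 8.39, 8.34 and 8.52 at day 80, and 8.18, 8.16, 8.26 and 8.11 at day 150. The ages formed 3 steps without overlap. The change from day 70 to day 150 was -0.54 (SE 0.085, interval -0.72 to -0.36; adjusted p = 0.0165, limma with Benjamini-Hochberg adjustment). It was split evenly, -0.27 between days 70 and 80 and -0.27 between days 80 and 150, and neither step passed on its own (adjusted p = 1 in both, limma with Benjamini-Hochberg adjustment).

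Mal codes for a proteolipid that sorts membrane and sphingolipids to the sheath. Control signals were 9.46, 9.37, 9.43 and 9.39 at day 70, 9.33, 9.23, 9.23 and 9.22 at day 80, and 9.004, 8.95, 8.88 and 8.83 at day 150. Here too the 3 ages did not overlap. The difference over the whole interval was -0.49 (SE 0.080; adjusted p = 0.0165, limma with Benjamini-Hochberg adjustment), of which -0.16 lay before day 80 and -0.34 after it.

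Tspan2 codes for a tetraspanin of the oligodendrocyte membrane. Its control arrays gave 9.24, 9.22, 9.13 and 9.23 at day 70, 8.86, 9.01, 9.03 and 9.16 at day 80, and 8.94, 8.78, 8.70 and 8.76 at day 150. Day 70 and day 150 did not overlap, while day 80 overlapped both. The fall was -0.41 on the log2 scale (SE 0.074; adjusted p = 0.0409, limma with Benjamini-Hochberg adjustment).

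Day 70 included 1 low-Xist mouse of 4 and day 150 none. Without that array the differences were -0.72 for Mog, -0.50 for Mal, -0.47 for Ugt8a and -0.40 for Tspan2, and none of the 4 passed (adjusted p = 0.125, 0.109, 0.109 and 0.205, limma with Benjamini-Hochberg adjustment). With all 5 low-Xist arrays left out, a choice made after the data were seen, Mog alone passed (adjusted p = 0.00575) and Mal, Ugt8a and Tspan2 had adjusted p = 0.0528, 0.0528 and 0.0974 by limma with Benjamini-Hochberg adjustment. Fitted on the 8 arrays of these groups alone, 0 of the 4 passed (adjusted p = 0.0943 to 0.267, limma with Benjamini-Hochberg adjustment).

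**Figure D2:**
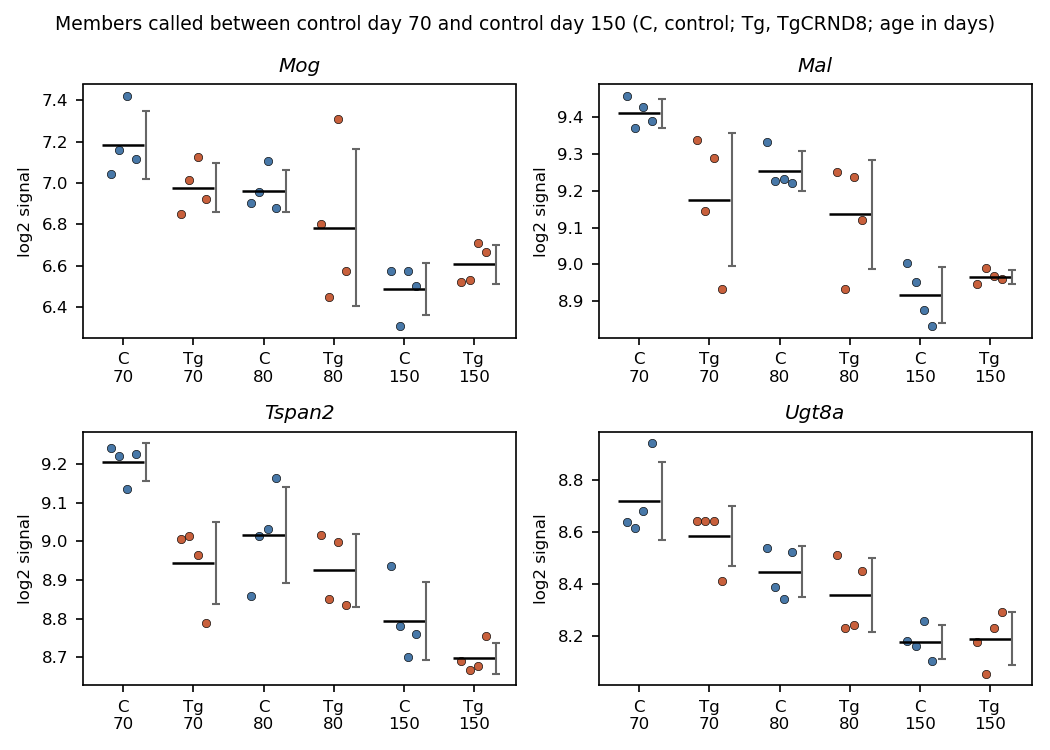
Log2 signal of Mog, Mal, Tspan2 and Ugt8a on each of the 24 arrays (points; blue, control; orange, TgCRND8), with group means (black lines) and SD (grey bars, n = 4 mice), by genotype and age in days. In controls the mean of each gene steps down from day 70 to day 150, from 7.18 to 6.49 for Mog and from 8.72 to 8.18 for Ugt8a. The TgCRND8 means of Mog and Ugt8a at day 70 are 6.98 and 8.58. For both genes the day 70 arrays of the genotypes overlap, and neither passed in that comparison. For Mal and Tspan2 every TgCRND8 array at day 70 lies below every control array of that age, and neither passed.

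For each of these 4 genes, the stretch of genome just before a start site is printed (RefSeq, GRCm38.p6). It runs 5′ to 3′ in the direction of transcription. Whether the 4 genes share regulation was not tested. The windows are chr17:37023399-37023648 on the minus strand for Mog, chr2:127656696-127656945 on the minus strand for Mal, chr3:102734520-102734769 on the plus strand for the first of 2 listed starts of Tspan2, and chr3:125938683-125938902 on the minus strand for Ugt8a, shortened to 220 bases so as to stay outside the annotated gene. Capitals mark matches to ACAANG, letters bound by SOX factors, and to CTGGNAC, letters bound by MYRF, searched on both strands.
Mog: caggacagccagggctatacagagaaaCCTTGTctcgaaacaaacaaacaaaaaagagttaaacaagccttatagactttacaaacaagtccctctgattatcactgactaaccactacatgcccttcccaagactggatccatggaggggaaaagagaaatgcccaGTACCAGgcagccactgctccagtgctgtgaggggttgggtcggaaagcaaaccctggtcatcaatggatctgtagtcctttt
Mal: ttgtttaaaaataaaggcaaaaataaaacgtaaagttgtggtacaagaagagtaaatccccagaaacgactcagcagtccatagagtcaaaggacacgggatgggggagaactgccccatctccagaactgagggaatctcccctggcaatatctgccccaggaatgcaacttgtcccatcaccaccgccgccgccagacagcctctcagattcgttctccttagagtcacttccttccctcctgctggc
Tspan2: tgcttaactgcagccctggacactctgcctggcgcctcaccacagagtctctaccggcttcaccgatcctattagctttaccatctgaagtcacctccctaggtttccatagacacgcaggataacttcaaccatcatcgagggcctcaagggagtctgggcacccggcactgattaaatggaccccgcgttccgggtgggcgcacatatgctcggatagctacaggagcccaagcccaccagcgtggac
Ugt8a: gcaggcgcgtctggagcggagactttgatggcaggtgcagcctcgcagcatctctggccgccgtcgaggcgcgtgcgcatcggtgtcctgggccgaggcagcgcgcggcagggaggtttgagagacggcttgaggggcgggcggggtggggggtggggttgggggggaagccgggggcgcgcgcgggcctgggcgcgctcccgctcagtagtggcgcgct
The Mog window held both, CCTTGT at 223 to 218 bases and GTACCAG at 83 to 77 bases before the start, each reading as the motif on the opposite strand. The other 3 windows held neither motif, nor CAGCTG, an E-box. Over all 32851 windows of 250 bases in the table, 36.3% held the SOX motif, 16.1% the MYRF motif and 13.0% the E-box. The 31 windows of the 20 genes that the table lists held them in 16, 8 and 3 cases. The Ugt8a window was 76.8% G and C over its full 250 bases, which include the bases not printed. The median over all windows was 52.4%, and the share was 57.2% for Tspan2, 50.0% for Mal and 46.8% for Mog. A match describes letters and is no evidence of binding.

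The other structural genes were lower on average in older controls and did not pass. Cldn11, the claudin that seals the layers of the sheath, read 7.45, 7.49, 7.53 and 7.86 at day 70 and 7.09, 6.84, 6.96 and 7.15 at day 150, without overlap. Its difference was -0.57 (SE 0.14; adjusted p = 0.267, limma with Benjamini-Hochberg adjustment). Mobp, a small basic protein of compact myelin, differed by -0.30 without overlap (10.84 to 11.37 at day 70 and 10.68 to 10.83 at day 150). Cnp, the cyclic nucleotide phosphodiesterase of non-compact myelin, differed by -0.25, and Mag, the adhesion protein that faces the axon, by -0.25, both with overlapping arrays. Mbp, which binds the inner membrane leaflets together, differed by -0.10 (interval -0.24 to 0.04) on its brightest probe set. Opalin and Ermn, 2 markers of mature oligodendrocytes, differed by only -0.03 each (intervals -0.26 to 0.21 and -0.25 to 0.19), and Pllp, a proteolipid of the sheath, by -0.16. All 11 structural genes were lower at day 150, with a median of -0.25, and 3 of the 11 fell.

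All 4 lipid genes were lower too, with a median of -0.25, and 1 of them, Ugt8a, fell. Fa2h, which hydroxylates the fatty acids of myelin galactolipids, read 7.53, 7.42, 7.30 and 7.65 at day 70 and 7.30, 7.196, 7.29 and 7.004 at day 150. The groups met at 7.30 without crossing, and the difference was -0.28 (adjusted p = 0.557, limma with Benjamini-Hochberg adjustment). Gal3st1, the sulfotransferase that turns galactosylceramide into sulfatide, differed by -0.21, and Aspa, which frees acetate from N-acetylaspartate, by -0.14 with an SE of 0.17.

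Of the 5 transcription factors 3 had a lower mean at day 150, with a median difference of -0.03. By limma 0 of the 5 passed, and 2 had an unadjusted p under 0.05. Whether the roles differ from each other was not tested. Olig1 had the smallest p of the 5, with 9.88, 9.85, 9.77 and 10.02 at day 70 and 9.82, 9.60, 9.82 and 9.50 at day 150, which overlap; its difference was -0.20 (adjusted p = 0.576, limma with Benjamini-Hochberg adjustment). Olig2 differed by -0.29, with day 70 arrays at 6.12 to 6.53 and day 150 arrays at 5.93 to 6.11, just without overlap. Sox10 and Myrf had higher means at day 150, by 0.11 (interval -0.16 to 0.37) and 0.05 (interval -0.26 to 0.36). Nkx6-2 differed by -0.03 at a signal near the lower part of the range. Of the connexins, the gap junction proteins of the list, Gjb1 differed by -0.10 and Gjc3 by 0.0022.

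The 7 other genes were all lower, with a median of -0.11, and 0 passed. Cryab, a small heat shock protein abundant in oligodendrocytes, had the largest difference of them, -0.43 (SE 0.094; adjusted p = 0.20, limma with Benjamini-Hochberg adjustment). Its control arrays read 8.06, 8.05, 8.13 and 8.39 at day 70 and 7.78, 7.65, 7.79 and 7.70 at day 150, without overlap. Gsn, the actin-severing protein gelsolin, differed by -0.26 and Bcas1, a marker of early myelinating oligodendrocytes, by -0.19. Car2, the carbonic anhydrase of oligodendrocytes, differed by only -0.07, yet its arrays did not overlap (10.42 to 10.50 at day 70 and 10.35 to 10.41 at day 150). Evi2a differed by -0.11, Qdpr, a reductase that regenerates tetrahydrobiopterin, by -0.10, and Plekhb1 by -0.04. The probe set shared by Trf, the iron carrier, and Srprb differed by -0.22.

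Taken over all roles, 10 of the 29 genes had every day 150 control array below every day 70 control array, against 2.53% of all genes, and 13 of 29 had an unadjusted p under 0.05, against 7.99%. The genes carry 34 further probe sets, on 16 of them, which read the same RNA at other places. Of those 34, 26 were lower at day 150, against 46% of all probe sets. Over 45037 probe sets 0 of the 34 passed, and 2 fell in all (0.00444%), the brightest sets of Ugt8a and Mal. The sets of Mog and Tspan2 did not pass there. The second Ugt8a set gave -0.54, the second Mal set -0.33, and the other 2 Tspan2 sets -0.33 and -0.38, each without overlap between the ages. Mbp, with 8 probe sets, had differences from -0.18 to 0.14, 6 of them below 0 and the 2 dimmest above. Mog has a single probe set.

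In TgCRND8 mice 0 of the 29 genes passed between days 150 and 70, while 16 of all genes did (0.0879%). At an unadjusted p under 0.05 it was 5 of 29, against 2.64% of all genes. The mean was lower at day 150 for 18 of the 29, with a median of -0.05, against 51.2% of all genes. All arrays of an age lay below for 3 of the 29, against 1.27%, and above for 1, against 1.22%. Ugt8a differed by -0.39 (adjusted p = 0.0846, limma with Benjamini-Hochberg adjustment), with 8.64, 8.64, 8.64 and 8.41 at day 70 and 8.18, 8.06, 8.23 and 8.29 at day 150, without overlap. Mog differed by -0.37 (6.85 to 7.12 against 6.52 to 6.71) and Tspan2 by -0.25 (8.79 to 9.02 against 8.67 to 8.76), also without overlap. Mal, at -0.21, overlapped through 1 array, TgCRND8 day 70 replicate 4 at 8.93, beside day 150 arrays of 8.95 to 8.99; the other 3 day 70 arrays read 9.14 to 9.34. Cryab, at -0.01, and Olig2, at -0.01, had intervals of -0.20 to 0.18 and -0.27 to 0.24. Nkx6-2 was the 1 gene with all day 150 arrays higher, by 0.26 (3.52 to 3.76 at day 70, 3.82 to 4.04 at day 150; adjusted p = 1, limma with Benjamini-Hochberg adjustment). In both genotypes the smallest p of the lipid genes was that of Ugt8a.

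Between days 70 and 80, 0 of the 29 genes passed in controls or in TgCRND8 mice, nor did any other gene by limma (0% called in both). Control day 80 replicates 1 and 4 and TgCRND8 day 80 replicates 1 and 3 had low Xist. At day 70 only control replicate 4 did, and at day 150 no array did. Age and low Xist are therefore partly mixed in the comparisons with day 80. Unadjusted p-values under 0.05 were found for 4 of the 29 in controls, against 3.24% of all genes, and for 2 in TgCRND8 mice, against 5.72%. The control mean was lower at day 80 for 26 of 29 genes, with a median of -0.13, against 52% of all genes. The TgCRND8 mean was lower for 17 of 29, with a median of -0.01, against 49.5%. From day 80 to day 150 also 0 of the 29 passed, against 0% of all genes in controls and 0.022% in TgCRND8 mice. At an unadjusted p under 0.05 the counts were 7 of 29 against 3.41%, and 2 of 29 against 6.76%. The control mean was lower for 23 of the 29, against 50.4% of all genes, and the TgCRND8 mean for 18, against 52.1%. Mog at -0.47 and Mal at -0.34 had the largest differences in controls over that interval without overlap (adjusted p = 1 for both, limma with Benjamini-Hochberg adjustment).

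**Figure D3:**
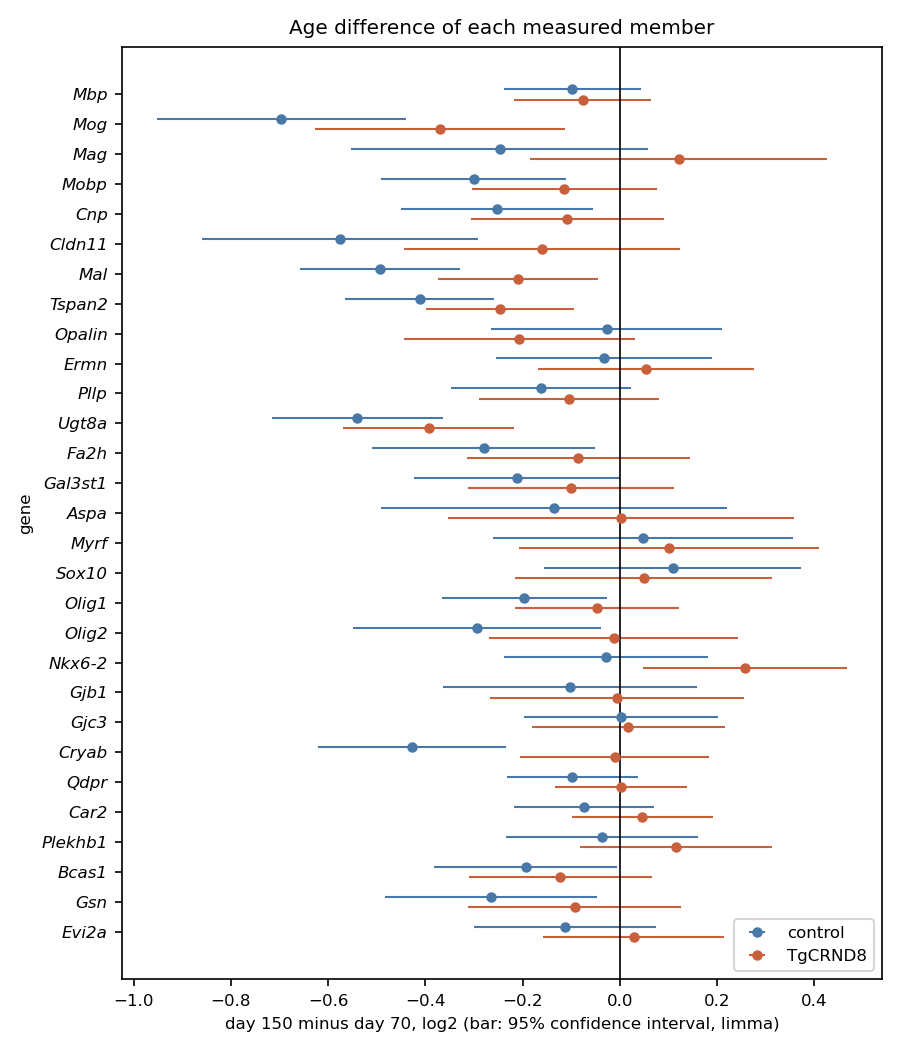
Difference between day 150 and day 70 of each measured gene in control (blue) and TgCRND8 mice (orange), on the log2 scale, with 95% confidence intervals from limma (4 mice per group). Control points lie left of 0 for 26 of 29 genes and TgCRND8 points for 18, and Cryab lies at -0.43 in controls and -0.01 in TgCRND8 mice.

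Whether the age difference itself depended on genotype was tested as an interaction. Of the 29 genes, 0 passed, with 2 of all genes called (0.011%), and 3 had an unadjusted p under 0.05, against 4.27%. The TgCRND8 age difference was the higher one for 27 of the 29, against 51.1% of all genes, with a median of 0.14, against 0.0036. This test uses the same control day 70 arrays as the age comparison in controls, so the counts of the 2 are not independent. The smallest p belonged to Cryab, with an interaction of 0.42 (interval 0.14 to 0.69; adjusted p = 1, limma with Benjamini-Hochberg adjustment), followed by Mal at 0.28 and Cldn11 at 0.41. For Mog it was 0.33 (interval -0.04 to 0.69) and for Ugt8a 0.15 (interval -0.10 to 0.39). By this test the age difference was not shown to differ between the genotypes. The interaction of days 80 and 70 also called 0 of 29 and that of days 150 and 80 called 0 of 29, with 0% and 0.0055% of all genes called. Each held 1 of 29 with an unadjusted p under 0.05, against 2.64% and 5.51% of all genes.

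The comparison of genotypes at each age asks whether the transgene is accompanied by a change in these genes. At day 70 no gene of the 18193 passed (0%), including the 29, and 3.25% of all genes had an unadjusted p under 0.05. TgCRND8 mice had the lower mean for 27 of the 29 genes, against 51.3% of all genes, with a median of -0.17, against -0.0031. Of the 29, 9 had an unadjusted p under 0.05 and 7 had every TgCRND8 array below every control array, against 1.26% of all genes, namely Tspan2, Mal, Car2, Cryab, Qdpr, Bcas1 and Evi2a. These values use the same 4 control day 70 arrays as the age comparison in controls, so neither stands as a check on the other. Of those 4 arrays replicate 4 had low Xist, and no TgCRND8 array at day 70 did. That array had the highest control day 70 value of Mag, Cldn11, Ugt8a, Fa2h, Olig1, Olig2, Gjb1, Cryab and Qdpr. Over 34 alternatives, single omissions included, the median of the 29 lay between -0.19 and -0.14.

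Tspan2 had the smallest p among the 29 at day 70, with 9.01, 9.02, 8.96 and 8.79 in TgCRND8 mice beside the control values of 9.13 to 9.24. It differed by -0.26 (SE 0.074, interval -0.41 to -0.11; adjusted p = 1, limma with Benjamini-Hochberg adjustment). Car2 read 10.35, 10.20, 10.24 and 10.11 in TgCRND8 mice and 10.50, 10.42, 10.43 and 10.45 in controls, a difference of -0.22. Every TgCRND8 array was lower for both genes. Cryab differed by -0.27 (7.71 to 7.97 against 8.05 to 8.39), and Mal by -0.23 (8.93 to 9.34 against 9.37 to 9.46). Among lipid genes Fa2h came first, with 7.42, 7.18, 7.26 and 6.95 against the control values above, a difference of -0.27 with overlap. Mag had the largest difference, -0.35, with arrays of 7.88 to 8.404 against 8.08 to 8.65, and they overlapped. Of the transcription factors Olig2 differed by -0.26 (5.94, 6.11, 6.13 and 6.07 against 6.39, 6.12, 6.24 and 6.53), also with overlap, and of the connexins Gjb1 by -0.25 (5.74 to 6.10 against 5.995 to 6.33). Opalin at 0.12 and Sox10 at 0.02 were the 2 genes with the higher mean in TgCRND8 mice. Of the 34 other probe sets, 29 were lower in TgCRND8 mice, against 48.4% of all probe sets, with a median of -0.12.

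At day 80, 21 of the 29 means were lower in TgCRND8 mice, with a median of -0.05, against 49.1% of all genes. At day 150 it was 16 of 29, with a median of -0.02, against 49.9%. None of the 29 passed at either age, where 0% and 0.121% of all genes did, and at neither age did any of the 29 separate all TgCRND8 from all control arrays. Among all genes such a separation was found at day 80 for 0.401% (TgCRND8 lower) and 0.846% (TgCRND8 higher), and at day 150 for 1.46% and 1.53%. Cryab at day 80, at -0.20, had an unadjusted p of 0.0482, the 1 of 29 under 0.05 at day 80 (3.77% of all genes); at day 150 it was 0 of 29 (4.38%). At day 150 the intervals bounded the genotype difference to between -0.14 and 0.38 for Mog, -0.12 and 0.21 for Mal, -0.25 and 0.06 for Tspan2 and -0.16 and 0.19 for Ugt8a. Over the mean of the 3 ages, which includes the day 70 difference, 27 of the 29 were lower in TgCRND8 mice, against 51% of all genes, with a median of -0.08. By limma 0 passed, against 0.0385% of all genes, and 5 had an unadjusted p under 0.05, against 3.16%.

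**Figure D4:**
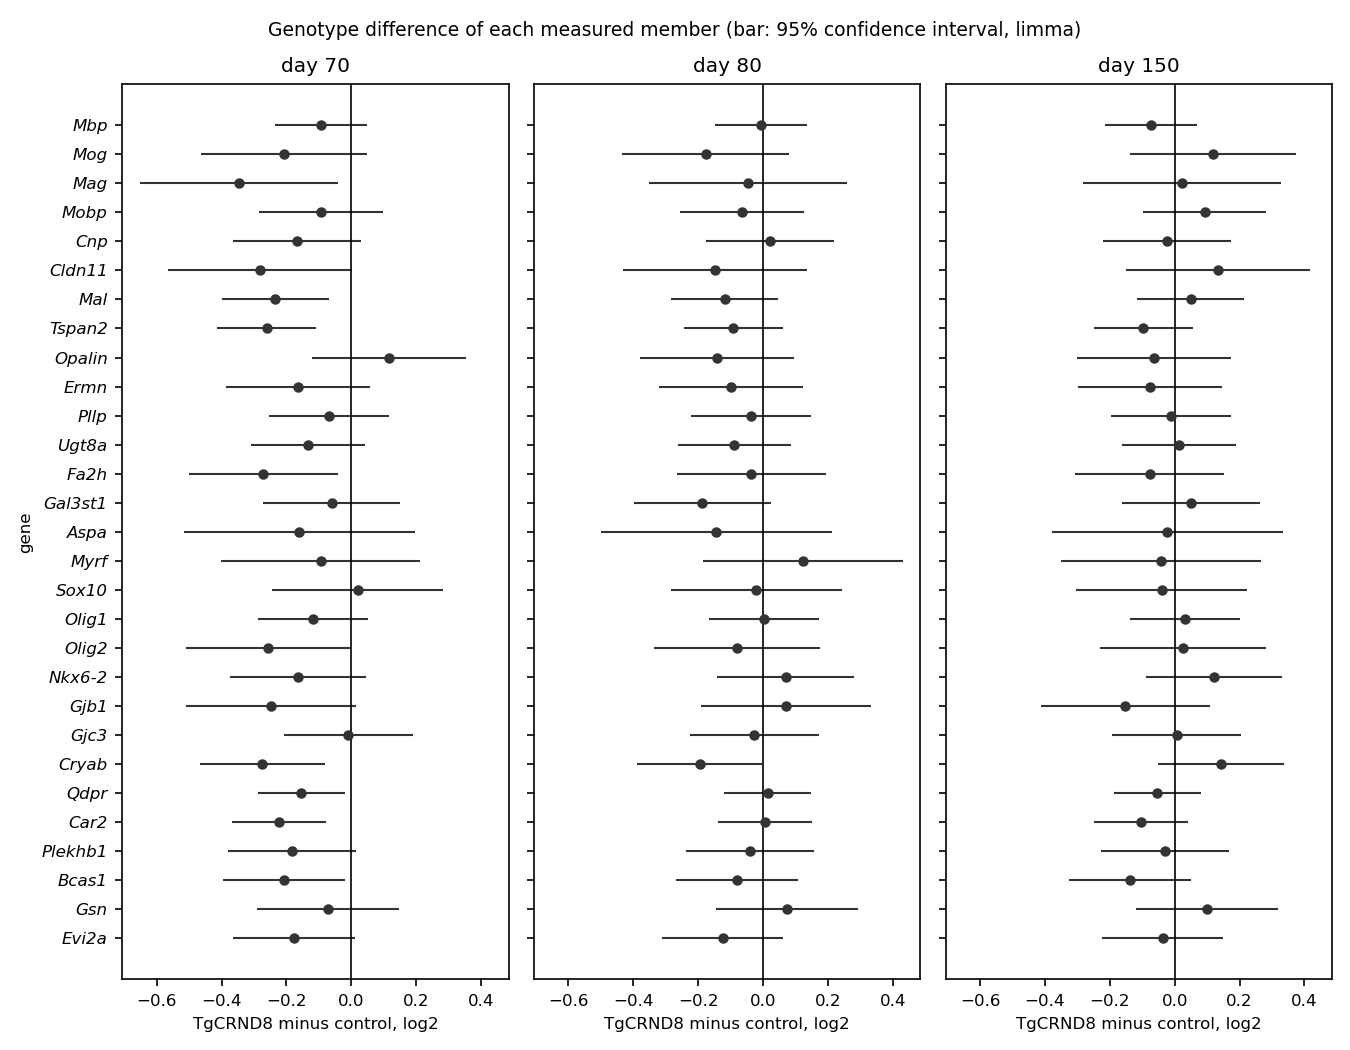
TgCRND8 minus control signal of each measured gene at days 70, 80 and 150 (log2, points), with 95% confidence intervals from limma (4 mice per group). Points lie left of 0 for 27, 21 and 16 of the 29 genes in turn, and the medians are -0.17, -0.05 and -0.02.

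Genes around the myelin program were read from lists of named genes. Among 18 further oligodendrocyte genes, 15 had a lower mean in controls at day 150 than at day 70 (median -0.13), where 51.2% of all genes did (median -0.0034). The first genes of that list, Plekhh1 and Tmem88b, differed by -0.14 and -0.31. Of 12 sphingolipid and galactolipid enzymes outside the 29, 10 were lower (median -0.12), with Cers2, the ceramide synthase of very long chains, at -0.29 and Sptlc1, a subunit of the enzyme that starts sphingolipid synthesis, at -0.10. Of 18 genes of cholesterol synthesis and its control, 17 were lower (median -0.21), with Hmgcs1, which makes HMG-CoA, at -0.22. Of 14 other regulators of oligodendrocytes, 9 were lower (median -0.06), with Sox8 at -0.14 and Nkx2-2 at 0.04. Oligodendrocyte precursor markers were lower for 6 of 9 (median -0.04). By limma 0 genes passed in any of these lists, against 0.022% of all genes, and 4, 2, 9, 3 and 2 genes in turn had an unadjusted p under 0.05, against 7.99%.

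Between the genotypes at day 150, 1 gene of these lists passed, where 0.121% of all genes did. Cd9, a tetraspanin found in oligodendrocytes and in other cells, rose by 0.46 in TgCRND8 mice (SE 0.074; adjusted p = 0.00258, limma with Benjamini-Hochberg adjustment), the 1 of 18 further oligodendrocyte genes that passed, while 8 of the 18 had a lower mean and the list median was 0.0022. Tyrobp, C1qa and Trem2 of 8 microglia markers and Gfap of 8 astrocyte markers also rose there, by 1.31, 0.54, 0.62 and 1.42 (adjusted p = 0.00076, 0.00258, 0.0326 and 2.14e-06, limma with Benjamini-Hochberg adjustment). All 18 cholesterol genes had a higher mean in TgCRND8 mice at day 150 (median 0.19), 0 passed and 9 had an unadjusted p under 0.05, against 4.38% of all genes. The 29 genes had a median of -0.02 in the same comparison.

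Averaged over the 29 genes, each taken relative to its mean over all arrays, control day 70 arrays stood at 0.12 to 0.19. Control day 80 arrays stood at -0.01 to 0.11, control day 150 arrays at -0.15 to -0.02, and TgCRND8 arrays at -0.11 to 0.06, -0.09 to 0.02 and -0.11 to -0.03 at the 3 ages. No array of another group reached the lowest control day 70 array. The same measure for neuron markers ran from -0.16 to 0.14 on control day 70 arrays and from -0.09 to 0.05 on control day 150 arrays, which overlap. Astrocyte markers ran from -0.10 to 0.08 and from -0.11 to 0.02, microglia markers from -0.13 to -0.02 and from -0.24 to -0.05, and endothelial markers from -0.23 to 0.37 and from -0.10 to 0.0011, in the same order. In that age comparison 6 of 7 endothelial markers had the lower mean at day 150 (median -0.15), as did 7 of 8 microglia (median -0.04), 6 of 8 astrocyte (median -0.02) and 4 of 9 neuron markers (median 0.01). The hindbrain and cerebellum list ran from -0.17 to 0.02 on control day 70 arrays, and 6 of its 9 genes had the higher mean at day 150. On control day 150 replicate 4 it stood at 0.41 (mean level 4.15), and on the other 3 arrays of that group at -0.04 to -0.0029. The count of its 9 genes above their own median did not set that array apart, at 5 against 4 to 5 on the others. That same array was the lowest of its group for the 29 genes, at -0.15 against -0.06 to -0.02, with 2 of 29 above their own median against 12 to 13. Without it the median difference of the 29 genes between days 150 and 70 was -0.13, and 0 passed by limma. The part of these markers in the result was not tested.

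**Figure D5:**
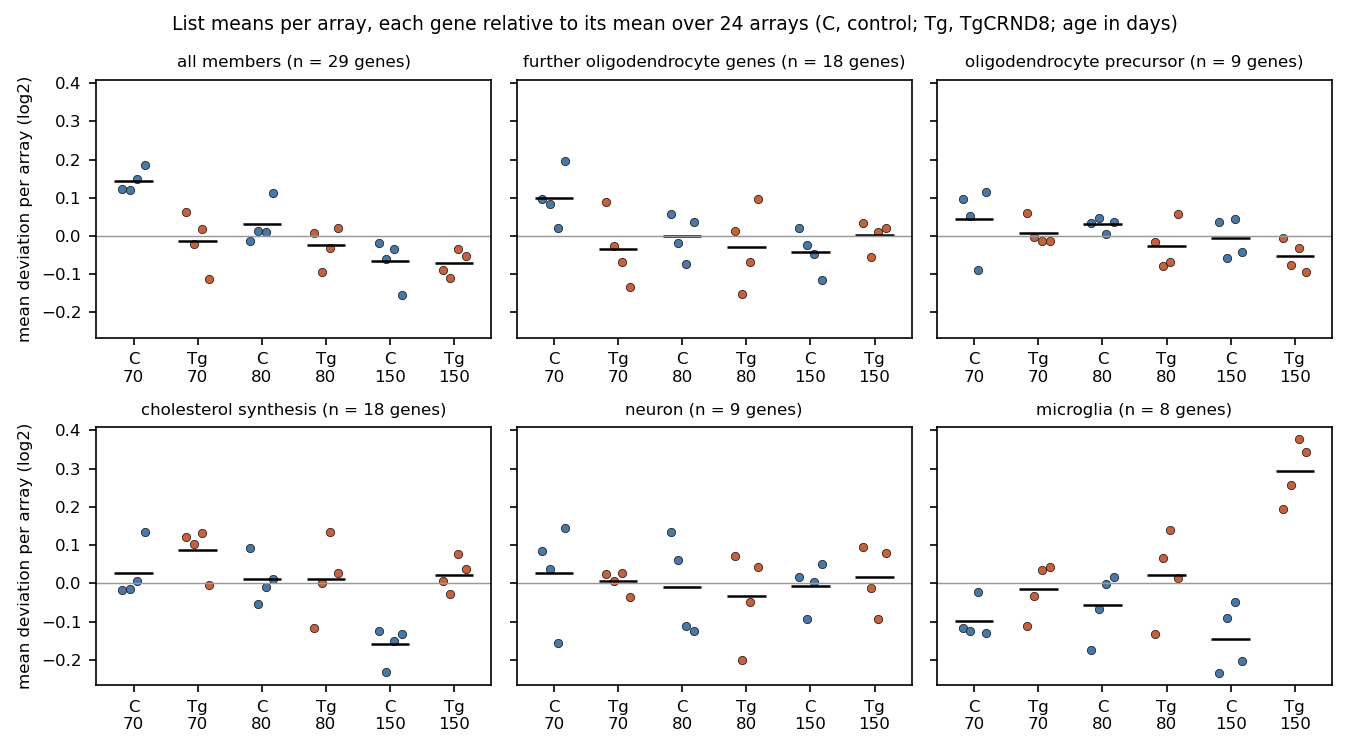
Mean deviation of 6 gene lists on each of the 24 arrays (log2, each gene relative to its mean over all arrays; points), with group means (black lines), by genotype and age. The 4 control day 70 points of the 29 genes, 0.12 to 0.19, lie above every other array, while the neuron points of the groups overlap and the microglia points of TgCRND8 mice at day 150 reach 0.38.

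Inside a group the 29 genes did not rise and fall as one from mouse to mouse. For each of the 406 pairs of genes, the arrays on which both lay on the same side of their group means were counted, 24 being the most possible; the median was 13. Mag and Myrf were on the same side on 22 arrays, and Cnp and Myrf, Mag and Cnp, Ermn and Aspa, Mobp and Bcas1, and Qdpr and Car2 on 21. Aspa and Olig2 were on the same side on 3 arrays, Mobp and Sox10 on 4, and Mobp and Cnp on 5. The mouse with the highest Myrf signal also had the highest Sox10 signal in 6 of 6 groups, and the mouse with the highest Aspa signal had the lowest Myrf signal in 4 of 6. The pairs were picked for their counts after these were seen, and arrays of 1 mouse share RNA and labelling, so these counts are descriptions. Pairs of other genes were not counted, so whether the 29 genes differ from others in this was not tested.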

How the data were processed

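Forebrain RNA of 24 mice was labelled by in vitro transcription and hybridised to Affymetrix mouse arrays, per the labels. The deposited log2 values were used as given, with medians of 4.28 to 4.38; their normalization and centring are not given in the sources used here. Of 45101 probe sets, 64 were controls; 34945 carried 1 symbol in an older platform annotation, 932 several and 9160 none. All 24 columns were mapped to groups and 0 were left over.

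All arrays entered 1 limma fit (limma 3.58.1, R 4.3.3) with 6 group means, 18 residual and 7.47 prior degrees of freedom; contrasts were called at a Benjamini-Hochberg adjusted p under 0.05 over 18193 genes. The fit was run on simulated data with known shifts. Recovery was required only for the larger shift, which exceeds the falls reported here. The median standard error of a difference was 0.0977, and the number of arrays limits precision. All members are named; other genes are named if called, or as the first of their list. Gene members, lists and comparisons were chosen with earlier results of these data known. Alternatives were quantile normalization, median centring, averaging a gene's probe sets, dropping the dimmest 40% of genes, eBayes with trend and robust settings, array weights, a replicate block, Xist as covariate, the compared groups alone and omission of single arrays. Promoter windows and symbols came from RefSeq tables (GRCm38.p6), which list 20 of the 30 genes. Figures were drawn with matplotlib 3.10.9 in Python 3.11.15.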

Additional observations from a re-analysis of the deposited data

Results flagged for a closer look

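In all, 6 of 174 combinations of gene and group held 1 mouse that stood apart from the other 3 by most of the group's range; chance alone marks about 1 in 20 such groups. Cnp was lowest in control day 70 replicate 3, at 11.3708, against 11.60 to 11.65 in the others. In the same mouse Bcas1 was highest, at 10.5944, against 10.23 to 10.29. Control day 80 replicate 1, a low-Xist mouse, had the highest Mal, 9.3324 against 9.22 to 9.23, and the highest Olig2, 6.3632 against 5.94 to 5.97. Ugt8a was lowest in TgCRND8 day 70 replicate 4, at 8.4133, against 8.64 in the others. Olig1 was highest in TgCRND8 day 150 replicate 1, at 9.863, against 9.65 to 9.68.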

How the results depend on the processing

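Of the 13 comparisons, 10 called 0 of the 29 genes under every alternative and with each array left out. In controls at day 150 against day 70, where 4 fell, quantile normalization and Xist as covariate each left 2 (Mal and Ugt8a), omission of the 5 low-Xist arrays 1 (Mog) and the compared groups alone 0. Leaving out 1 array gave 0 to 4: 0 without control day 70 replicate 4 or control day 150 replicate 2 or 4, 1, Ugt8a, without control day 70 replicate 1 or 3 or control day 150 replicate 3, 2 without control day 70 replicate 2, and 3 without control day 150 replicate 1. Mog failed when any of the 8 compared arrays was left out (adjusted p = 0.0808 to 0.175 by limma with Benjamini-Hochberg adjustment); over all 24 omissions Mog passed in 7, Tspan2 in 10, Mal in 18 and Ugt8a in 21. The differences kept their sign throughout, from -0.74 to -0.62 for Mog, -0.53 to -0.41 for Mal, -0.46 to -0.37 for Tspan2 and -0.58 to -0.47 for Ugt8a. In TgCRND8 mice at day 150 against day 70, where 0 passed, Ugt8a passed with array weights, Xist as covariate or the low-Xist arrays omitted (1 each); omission of 1 array gave 0 to 1, the 1 being without control day 70 replicate 4. TgCRND8 day 80 against day 70 called 2 without the low-Xist arrays (Mog lower, Nkx6-2 higher), where only 2 arrays remained at day 80. The causes of these changes were not tested. The other probe sets gave 0 in the 5 alternatives run. Same-numbered arrays had 60 correlations from -0.37 to 0.61, median 0.14 against -0.04 for different numbers, and 13 of 24 were closest to their own number, a hint of shared signal. In 2 of 15 group pairs (control with TgCRND8 at day 150, and TgCRND8 day 70 with control day 80) every one was over 0.1; over all groups the numbers were not taken as pairing. The replicate block gave 4 calls in controls, as without it, and changed no member call elsewhere. Median centring moved the median of all genes in the control age comparison to -0.0403.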
